A study of Mus musculus with 12 samples.

Results

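The genes described here are 38 genes of the endoplasmic reticulum (ER) folding machinery and of the unfolded protein response, measured as messenger RNA in mouse liver. They were chosen by symbol from a list of ER chaperones, folding enzymes, stress sensors, degradation factors and translocation factors, and they are 38 of the 55421 genes in the count table. Each symbol occurred once, and all 38 passed the filter on low counts, as did 14076 genes in all. By role they fall into 9 genes for the chaperones BiP and GRP94 and their partners, 9 lectin chaperones and foldases, and 4 genes for the stress sensors and XBP1. The rest are 8 genes of ER-associated degradation and 8 genes of the translocon and signal peptidase.

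The livers came from adult male C57BL/6 mice of the strains Fra1hep and Fra2hep, in which the transcription factor subunit Fra-1 (gene Fosl1) or Fra-2 (gene Fosl2) can be switched on by taking doxycycline away. There were 3 Fra1hep mutants, 3 Fra1hep controls, 3 Fra2hep mutants and 3 Fra2hep controls. Doxycycline was withdrawn at weaning, at 3 weeks of age, from mutants and from their littermate controls alike, so all 4 groups share that treatment. The titles and the design text place sampling at 2 months of transgene induction. The treatment label of the Fra2hep mutants instead reads 9 months, so a difference in age between Fra2hep mutants and controls cannot be told apart from the genotype if that label is right. Every other comparison that uses the Fra2hep mutants would then carry that difference in age too. The promoter that drives the transgene is not stated in the labels.

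In the ER, newly made secreted and membrane proteins enter through the Sec61 channel, lose their signal peptide, and are folded by BiP (Hspa5), GRP94 (Hsp90b1), calnexin and calreticulin, while protein disulfide isomerases form their disulfide bonds. Proteins that do not fold are sent back to the cytosol for degradation by a membrane complex around Sel1l and Hrd1 (Syvn1). When unfolded proteins accumulate, IRE1 (Ern1), PERK (Eif2ak3) and ATF6 (Atf6) signal to the nucleus, where XBP1 and the cleaved form of ATF6 raise transcription of chaperone and degradation genes. Hepatocytes secrete most plasma proteins and are rich in this machinery.

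A DNA sequence known to respond to these factors is the ER stress response element (ERSE), in which CCAAT and CCACG are spaced by 9 bases. It was searched on both strands in the 250 bases before each gene start in RefSeq (build GRCm38.p6), and 31 of the 38 genes had such a window. The ERSE letters were found in 9 of these 31 genes, or 29.0%, against 37 of all 32851 windows, or 0.113%. The 31 genes had 35 windows, so the first share counts genes and the second counts windows. The element is known from chaperone genes such as these, so its high share here is no independent finding. The 9 genes were Hspa5, Hsp90b1, Creld2, Dnajc3, Calr, Canx, Pdia6, Derl3 and Syvn1, and Hsp90b1 had 2 matches. The sites below are shown because the levels of their genes are described further on. Each is printed 5′ to 3′ on the strand of its gene, with the ERSE in capitals and 5 flanking bases on each side. In Calr and in the second Hsp90b1 site the element lies in the reverse direction, so its capitals begin with CGTGG.
Hspa5, chr2:34772020-34772048: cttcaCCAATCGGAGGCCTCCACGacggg
Hsp90b1 first site, chr10:86705633-86705661: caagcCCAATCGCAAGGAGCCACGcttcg
Hsp90b1 second site, chr10:86705528-86705556: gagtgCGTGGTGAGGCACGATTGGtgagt
Calr, chr8:84847070-84847098: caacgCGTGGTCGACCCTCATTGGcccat
Pdia6, chr12:17266486-17266514: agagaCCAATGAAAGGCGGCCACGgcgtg
Dnajc3, chr14:118937822-118937850: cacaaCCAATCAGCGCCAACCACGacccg

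The Hspa5 element lies 65 to 47 bases before the RefSeq start, inside an Hspa5 exon of the GENCODE M21 annotation, which begins further upstream. The other sites shown overlap no M21 exon. Creld2, which encodes an ER-resident protein induced by ER stress, had the highest fitted Fra2hep fold of the list, so its whole window is given with the reversed ERSE in capitals. It spans chr15:88819396-88819645, upstream of the gene and free of exons.
Creld2: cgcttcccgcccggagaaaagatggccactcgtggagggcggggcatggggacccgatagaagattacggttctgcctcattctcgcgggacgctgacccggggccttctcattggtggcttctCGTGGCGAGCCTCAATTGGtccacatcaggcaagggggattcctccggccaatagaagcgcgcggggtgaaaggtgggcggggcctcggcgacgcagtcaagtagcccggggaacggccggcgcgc

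Herpud1, which recruits substrates to the degradation complex, had the related ERSE-II letters, ATTGG and CCACG spaced by 1 base, found in 0.0304% of all windows. It is shown because its level did not follow that of the chaperones.
Herpud1, chr8:94386372-94386392: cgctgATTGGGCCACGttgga

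Fra-1 and Fra-2 bind, as parts of the AP-1 complex, the letters TGAGTCA. These were present in the windows of Hspa5 and Sec61b, 6.45% of the 31 genes, against 4.46% of all windows. The UPRE letters TGACGTGG occurred in Txndc5 alone among the 31, the letters TGATGCAA in Herpud1 alone, and the cAMP response element TGACGTCA in 0 of them, against 0.563%, 0.791% and 1.55% of all windows. Such a match describes the DNA and was not tested as a binding site. The AP-1 letters before Hspa5 are shown because the transgenes encode AP-1 subunits.
Hspa5 AP-1, chr2:34771903-34771919: gccaaTGAGTCAgcccg

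The libraries held 16834041 to 20464807 counts, and the 38 genes together took 0.706% to 1.36% of them. Levels below are CPM, the counts scaled to a common library size by TMM factors, and folds and log2 fold changes come from edgeR's quasi-likelihood test over 4 groups and 12 libraries, with p-values adjusted over the 14076 genes by Benjamini-Hochberg and called under 0.05. The levels of the transgenes' genes matched the labels. Fosl1 was at 9.41, 10.2 and 12.8 CPM in the Fra1hep mutants and at 0, 0 and 0.0538 CPM in their controls. Fosl2 was at 398, 421 and 421 CPM in the Fra2hep mutants and at 12.2, 48.1 and 16.0 CPM in their controls. Fra2hep control 2, with 48.1 CPM, had the highest Fosl2 level of its group, and it recurs below as the lowest library for most of the 38 genes. As the label mostly hepatocyte says, all 11 hepatocyte markers in the table were present in every group, and together they reached at least 79773 CPM in each library. In such bulk RNA, fewer cells of a type and less RNA per cell cannot be told apart.

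Libraries stood apart for these genes within groups, before any comparison of mutants and controls. Fra2hep control 2 held the lowest of the 12 levels for 24 of the 38 genes, and only 1 gene was above its own mean there. Fra1hep control 3 lay at the other end: 34 of 38 genes were above their mean, 10 had their highest level there, and it was the highest of the 3 Fra1hep controls for 30 genes. Among Fra1hep mutants, replicate 2 was the lowest for 31 genes and replicate 3 the highest for 27. Among Fra2hep mutants, replicate 1 was the highest for 25. So the genes moved largely together from liver to liver, also among livers of 1 group. These counts were not made over all genes, so they are not shown to be particular to the list.

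The median of the 38 deviations of log2 CPM from the gene mean was -0.03, -0.14 and 0.21 in the Fra1hep controls. It was 0.09, -0.16 and 0.16 in the Fra1hep mutants. In the Fra2hep controls it was -0.15, -0.36 and -0.09, and in the Fra2hep mutants 0.25, 0.09 and 0.09. The 3 Fra2hep mutants thus lay above all Fra2hep controls, whereas the Fra1hep groups overlapped and each held a low and a high liver. Over all genes tested the same median stayed between -0.01 and 0.02.

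**Figure D1:**
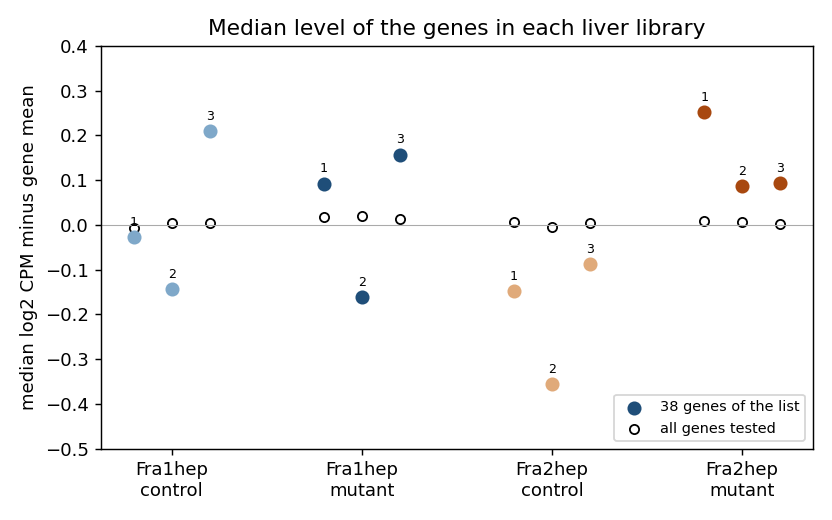
Median over the 38 genes of log2 CPM minus the gene's mean over 12 libraries (filled points, numbered by replicate), beside the median over all 14076 genes tested (open points). Fra2hep control 2 lies lowest at -0.36 and Fra2hep mutant 1 highest at 0.25, and the Fra1hep groups overlap.

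**Figure D2:**
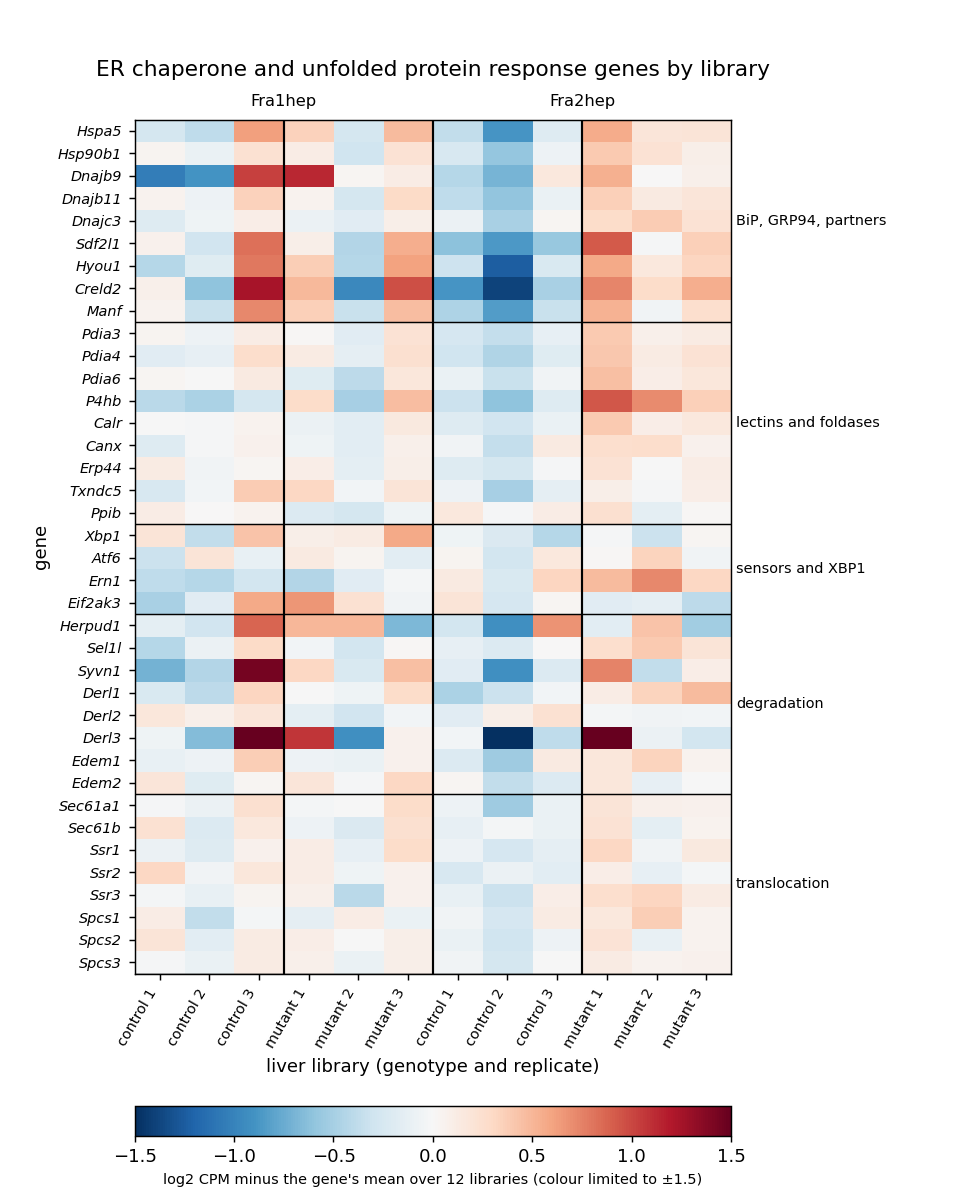
Log2 CPM of each of the 38 genes (rows, ordered by role) in each of the 12 liver libraries (columns), as the difference from the gene's mean, with colour limited to ±1.5. Most rows are blue in Fra2hep control 2 and red in Fra1hep control 3 and Fra2hep mutant 1, and the rows of Xbp1, Atf6, Ern1 and Eif2ak3 differ in their order of livers.

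The first comparison asked how the ER genes stood in livers with the Fra-2 transgene. In Fra2hep mutants 34 of the 38 genes had a positive log2 fold change against controls, where 49.1% of all genes did, and the median was 0.38 against -0.01 over all genes. No gene of the 38 passed the adjusted threshold in edgeR, where 0.845% of all genes were called higher and 0.220% lower, and limma-voom also called 0. At an unadjusted p under 0.05, 20 were higher and 0 lower, against 6.60% and 4.86% of all genes. DESeq2 called 4 of them higher (P4hb, Pdia4, Calr and Sdf2l1) and 0 lower, against 2.09% and 0.871% of the genes it tested. All 3 mutants lay above all 3 controls for 21 genes and below them for 0, against 9.31% and 8.17% of all genes.

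These counts lean on single livers. Without Fra2hep control 2 the unadjusted count was 8 with a median of 0.26, and without Fra2hep mutant 1 it was 10 with a median of 0.31. The number of genes with a positive value was 34 to 35 whichever of the 12 libraries was left out.

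Of the roles, BiP, GRP94 and their partners had the highest median log2 fold change in Fra2hep mutants, at 0.77. All 9 had a positive value. For all but Dnajb9 the mutants did not overlap the controls, where 9.31% of all genes had every mutant above every control. The same 9 genes were all lower in Fra2hep controls than in Fra1hep controls, with a median of -0.51. In Fra2hep against Fra1hep mutants their median was 0.16, with 8 positive. BiP itself (Hspa5, ENSMUSG00000026864.13, chr2:34771970-34777547, plus strand, GRCm38) binds exposed stretches of unfolded proteins and holds the stress sensors inactive. It was at 719, 501 and 809.8 CPM in Fra2hep controls and at 1359.5, 1050.2 and 1053 CPM in Fra2hep mutants. The groups did not overlap, with control 2 the lowest and mutant 1 the highest. The log2 fold change was 0.77 (SE 0.29, 1.71-fold, edgeR adjusted p = 0.319).

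Hsp90b1 (chr10:86690209-86705509, minus strand) encodes GRP94, the ER form of the HSP90 chaperones. It was at 689, 540.5 and 769 CPM in Fra2hep controls and at 1065, 945 and 861 CPM in the mutants, again without overlap. Its log2 fold change was 0.52 (SE 0.18, edgeR adjusted p = 0.252). Exons of other transcripts overlap Hsp90b1, among them 1810014B01Rik on the opposite strand, so part of its count could be theirs.

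Sdf2l1 (chr16:17130138-17132383, minus strand) encodes a partner of the J-domain protein Dnajb11 in the BiP cycle. It was at 27.2, 23.1 and 28.1 CPM in Fra2hep controls and at 78.9, 41.2 and 53.3 CPM in Fra2hep mutants. Every mutant lay above every control, and mutant 1 was the highest. The log2 fold change was 1.14 (SE 0.33, 2.21-fold, edgeR adjusted p = 0.161). DESeq2 gave an adjusted p of 0.0289 for it.

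Dnajb11, which hands substrates to BiP, was at 86.8, 75.2 and 106 CPM in Fra2hep controls and at 145, 124 and 129 CPM in the mutants. Its log2 fold change was 0.57 (SE 0.17, edgeR adjusted p = 0.181), and the groups did not overlap. Creld2 was at 25.9, 18.3 and 34.3 CPM in Fra2hep controls and at 79.7, 58.2 and 69.6 CPM in Fra2hep mutants. The mutants were 2.64-fold higher in the fit (log2 1.40, SE 0.52, edgeR adjusted p = 0.313). Creld2 was picked for this account after its values were seen. Hyou1, a nucleotide exchange factor for BiP, had 0.89, and Manf, a secreted partner that BiP retains, had 0.79. Exons of Manf overlap Rbm15b on the same strand and Dcaf1 on the opposite strand, so part of its count could be theirs. Dnajc3, which binds unfolded proteins and PERK, had 0.46 and was one of 4 genes whose 3 Fra2hep mutants lay above all 6 controls of both strains. The others were P4hb, Calr and Ssr3, while 5.37% of all genes showed that order.

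**Figure D3:**
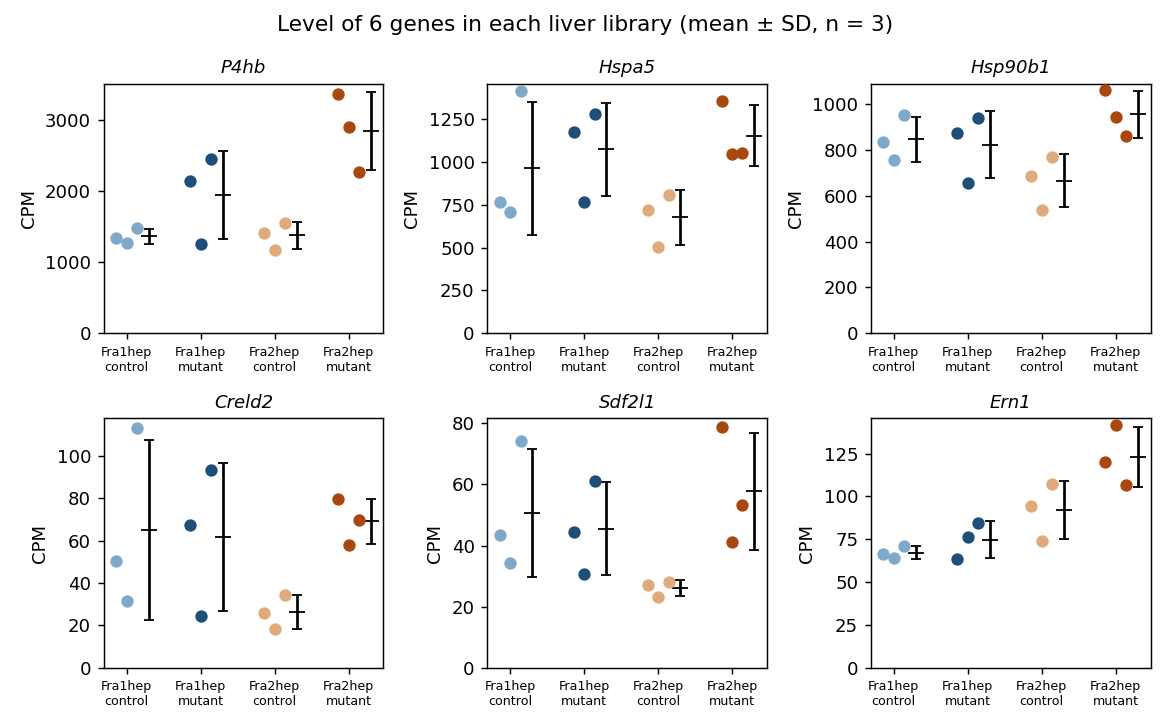
CPM of 6 genes in each liver, with the group mean and SD (n = 3) as bars beside the points. For P4hb the 3 Fra2hep mutants (2271 to 3378 CPM) lie above all controls, and for Creld2 and Sdf2l1 the Fra2hep controls lie low while the Fra1hep groups are wide.

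Of the lectin chaperones and foldases, 8 of 9 had a positive value in Fra2hep mutants, with a median log2 fold change of 0.40. P4hb (ENSMUSG00000025130.11, chr11:120560298-120573253, minus strand) encodes protein disulfide isomerase, which is also a subunit of prolyl 4-hydroxylase and of the triglyceride transfer protein that loads lipoproteins. It was at 1415, 1168 and 1551 CPM in Fra2hep controls and at 3378, 2903 and 2271 CPM in Fra2hep mutants. The groups did not overlap, and their means differed by more than either SD, at 1378 ± 194 and 2850.5 ± 555 CPM (SD, n = 3). Its log2 fold change of 1.05 (SE 0.24, 2.07-fold) had the smallest adjusted p of the list, 0.0653 in edgeR, and it ran from 0.00143 in DESeq2 to 0.295 without Fra1hep control 3 and Fra2hep control 2.

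Pdia4, another disulfide isomerase, was at 216, 195 and 234 CPM in Fra2hep controls and at 351, 289 and 308 CPM in the mutants (log2 0.56, SE 0.15, edgeR adjusted p = 0.139). DESeq2 gave it an adjusted p of 0.0291. Calr, the calcium-binding lectin chaperone calreticulin, was at 939.6, 875 and 999 CPM in controls and at 1409, 1148 and 1195 CPM in mutants (log2 0.42, SE 0.13, edgeR adjusted p = 0.203). For both genes the mutants lay above the controls. Its membrane-bound relative Canx had 0.28 with overlapping groups. Pdia3 and Pdia6 had 0.44 and 0.40. Ppib, the ER cyclophilin, was the exception of this group at -0.04, with both groups between 224 and 293 CPM.

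Of the 4 sensor genes, 3 had a positive value in Fra2hep mutants, with a median of 0.13, and Ern1 alone had an unadjusted p under 0.05. Xbp1 was at 245, 219.8 and 191 CPM in Fra2hep controls and at 252, 204 and 262 CPM in mutants (log2 0.13, SE 0.21, edgeR adjusted p = 0.882). Atf6 was at 75.2, 60.4 and 81.6 CPM in controls and at 74.2, 92.0 and 70.2 CPM in mutants (log2 0.12, SE 0.16, edgeR adjusted p = 0.848). Eif2ak3 was at 26.6, 19.5 and 23.9 CPM in controls and at 20.7, 21.3 and 17.8 CPM in mutants (log2 -0.23, SE 0.26, edgeR adjusted p = 0.815). All 3 sets of values overlapped. XBP1 is activated by splicing of its messenger, and ATF6 and the kinases by changes to the protein, none of which gene counts record.

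Ern1 (chr11:106394650-106487852, minus strand), which encodes the XBP1 splicing enzyme IRE1, was at 94.6, 73.9 and 107 CPM in Fra2hep controls and at 120.1, 142 and 107 CPM in Fra2hep mutants. The groups touched at about 107 CPM, and the log2 fold change was 0.42 (SE 0.16, edgeR adjusted p = 0.320). In the Fra1hep strain it was at 66.3, 63.9 and 71.4 CPM in controls and at 63.5, 76.5 and 84.5 CPM in mutants (log2 0.16, SE 0.16, edgeR adjusted p = 0.684). Its level thus stood higher in both Fra2hep groups than in the Fra1hep controls.

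Among the degradation genes 6 of 8 had a positive value in Fra2hep mutants, with a median of 0.38. Derl1, a channel subunit for retrotranslocation, was at 96.2, 107 and 129.6 CPM in Fra2hep controls and at 144, 167 and 185 CPM in mutants (log2 0.58, SE 0.19, edgeR adjusted p = 0.240). Sel1l, the scaffold of the Hrd1 ligase, had 0.39, also without overlap. The mannosidase-like factors Edem1 and Edem2 had 0.37 and 0.19 with overlapping groups. Derl3 had the lowest level of the list, from 0.502 to 9.26 CPM over the 12 livers, and its value of 1.26 had an SE of 0.82. Herpud1 ranged from 201 to 693 CPM over the controls and mutants and had -0.01 (SE 0.46). Syvn1 had 0.63 (SE 0.52), with 396 CPM in Fra1hep control 3 and no other liver above 245 CPM.

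All 8 genes of the translocon and signal peptidase had a positive value in Fra2hep mutants, but small ones, with a median of 0.23 and a range of 0.13 to 0.34. Sec61a1, the channel subunit, had 0.34, and Ssr3 and Ssr1 of the translocon-associated complex had 0.33 and 0.29. The signal peptidase subunits Spcs1, Spcs2 and Spcs3 had 0.25, 0.21 and 0.18. For Sec61a1, Ssr1, Ssr3 and Spcs3 the mutants lay above the controls without overlap, as they did for 9.31% of all genes.

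**Figure D4:**
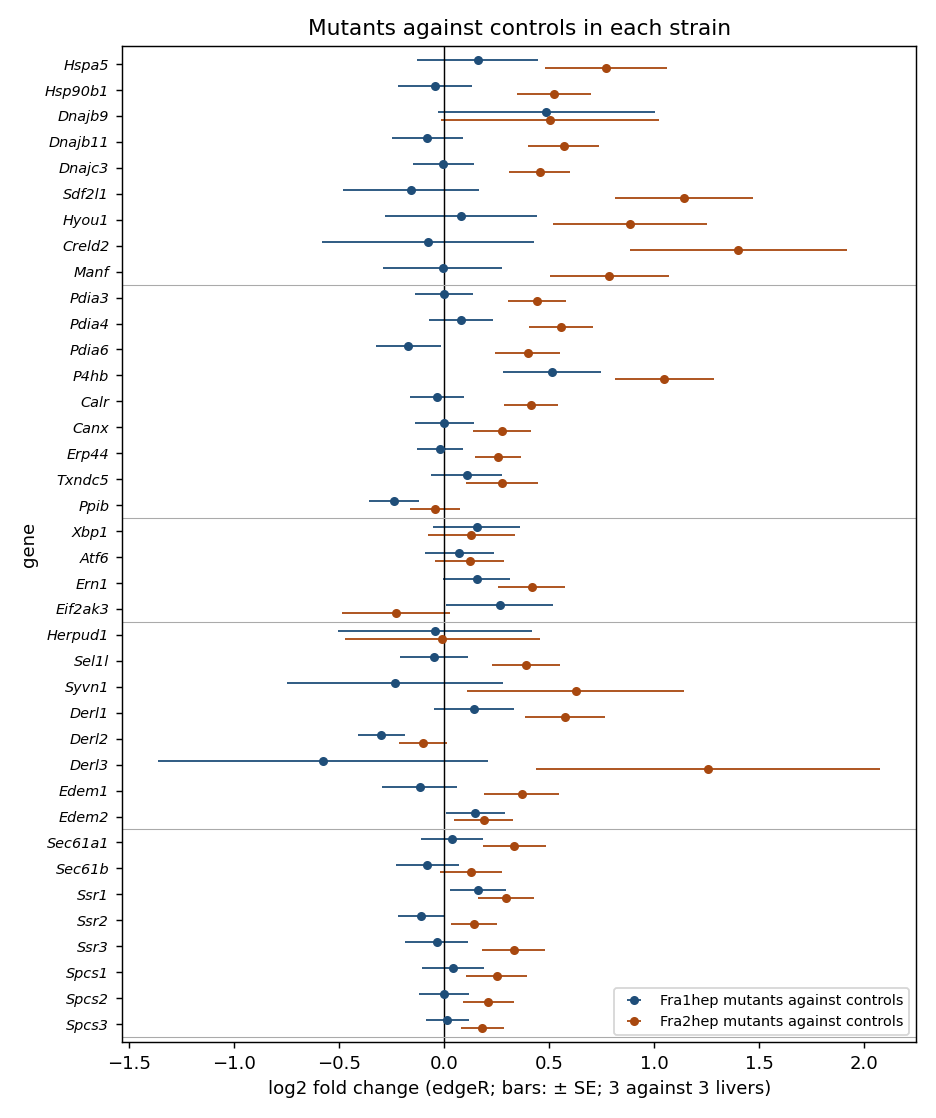
Log2 fold change of mutants against controls for each of the 38 genes in the Fra1hep and the Fra2hep strain (points, with bars of ± 1 SE, 3 against 3 livers each), ordered by role. Fra2hep points lie to the right of 0 for 34 genes and Fra1hep points for 19.

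The same question was asked of the Fra-1 transgene. In Fra1hep mutants 19 genes had a positive and 19 a negative value, where 51.0% of all genes were positive, and the median was -0.00 against 0.01 over all genes. This balance leaned on single livers: 30 values were positive without Fra1hep control 3 (median 0.13) and 29 without Fra1hep mutant 2. Without Fra1hep control 2 the number was 11, and it was 12 without Fra1hep control 1 or without Fra1hep mutant 3 (median -0.088). By edgeR 0 of the 38 were called, where 2.90% of all genes were called higher and 0.938% lower, and limma-voom also called 0. DESeq2 called 0 as well, against 4.56% higher and 2.23% lower of its genes. P4hb was higher and Derl2 lower at an unadjusted p under 0.05, against 9.95% and 6.36% of all genes. The mutants lay below all controls for Derl2 and Ppib and above them for 0 genes, against 9.98% and 11.7% of all genes.

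P4hb was at 1343, 1273 and 1476 CPM in Fra1hep controls and at 2139.6, 1252 and 2449 CPM in Fra1hep mutants. Mutants 1 and 3 were above all controls and mutant 2 was below them (log2 0.51, SE 0.23, edgeR adjusted p = 0.306). Without Fra1hep mutant 2 the value was 0.75 with an edgeR adjusted p of 0.0594. Hspa5 was at 768, 708 and 1414 CPM in controls and at 1179, 768 and 1282 CPM in mutants (log2 0.16, SE 0.29, edgeR adjusted p = 0.843). The control 3 level was the highest of all 12 livers. Hsp90b1 had -0.04 (SE 0.18, edgeR adjusted p = 0.938), with 835, 757 and 953 CPM in controls and 874, 658 and 942 CPM in mutants.

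Derl2, a relative of Derl1, was at 136, 128 and 138 CPM in Fra1hep controls and at 109.7, 99.7 and 118 CPM in mutants (log2 -0.30, SE 0.11, edgeR adjusted p = 0.208). Ppib was at 267, 249.6 and 258 CPM in controls and at 215, 206 and 238 CPM in mutants (log2 -0.24, SE 0.12, edgeR adjusted p = 0.354). For both the mutants lay below the controls. Their exons overlap Mis12 and Snx22 on the opposite strand, and no label or note says if reads of opposite strands were kept apart. Ssr1 was at 127, 118 and 141 CPM in Fra1hep controls and at 146, 124 and 162 CPM in mutants, with overlap (log2 0.16, SE 0.13, edgeR adjusted p = 0.593).

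The sensors had small positive values in Fra1hep mutants. Xbp1 was at 294, 198 and 343 CPM in controls and at 272, 278 and 379 CPM in mutants (log2 0.16, SE 0.21, edgeR adjusted p = 0.767). Atf6 was at 58.3, 83.9 and 67.5 CPM in controls and at 80.1, 75.1 and 65.6 CPM in mutants (log2 0.07, SE 0.16, edgeR adjusted p = 0.877). Eif2ak3 was at 16.7, 20.7 and 34.5 CPM in controls and at 36.9, 27.3 and 22.4 CPM in mutants (log2 0.27, SE 0.25, edgeR adjusted p = 0.662). In each case 1 or more controls lay inside the range of the mutants.

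The mean of both effects averages the strains, and a large effect in 1 strain can carry it. P4hb rose, by 0.78 on the log2 scale (SE 0.17, 1.72-fold, edgeR adjusted p = 0.0167), in 5 of 6 mutants above all 3 controls of their strain. It was the only gene of the 38 to pass, where 4.33% of all genes were called higher and 1.90% lower in this comparison. DESeq2 and limma-voom called P4hb alone as well, where DESeq2 called 5.48% of its genes higher and 3.26% lower. The call was lost without Fra1hep control 2 (edgeR adjusted p = 0.0502) and without Fra1hep control 3 and Fra2hep control 2 together (adjusted p = 0.0751). It was kept in the other 18 of 20 alternatives, and the adjusted p ran from 0.000204 to 0.0751. Of all 38 genes, 35 had a positive mean effect, where 50.1% of all genes did, with a median of 0.19 against 0.00 over all genes. Unadjusted, 8 were higher and 1 lower at a p under 0.05, against 11.2% and 8.26% of all genes. That count of 8 ran from 2 to 16 with single libraries left out. It was lowest without Fra1hep control 1, Fra1hep control 2 or Fra1hep mutant 3 and highest without Fra1hep control 3 or Fra1hep mutant 2. With no scaling factor it was 21, but there 17.8% of all genes were higher at that threshold and 67.0% had a positive value. Ern1 had 0.29 (edgeR adjusted p = 0.178), Derl1 0.36 (adjusted p = 0.161) and Pdia4 0.32 (adjusted p = 0.120). Without Fra1hep control 3, edgeR called Dnajb9 and Derl1 beside P4hb, where 536 of all 14393 genes tested were called higher.

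The difference between the strains' effects was tested directly, as the Fra2hep effect minus the Fra1hep effect. The value was positive for 36 of the 38 genes, where 48.1% of all genes were positive, and the median was 0.33 against -0.01. By edgeR 0 genes of the list were called, where 0.00710% of all genes were called higher and 0.0284% lower, and the smallest adjusted p was 0.665. DESeq2 called 0 of them, against 0.152% of its genes higher and 0.356% lower, and limma-voom called 0. Unadjusted, 8 were higher and 0 lower at a p under 0.05, against 2.29% and 4.03% of all genes. They were Sdf2l1 (1.30, SE 0.46), Dnajb11 (0.65, SE 0.24), Pdia6 (0.57, SE 0.22), Hsp90b1 (0.56, SE 0.25), Calr (0.45, SE 0.18), Pdia4 (0.47, SE 0.22), Dnajc3 and Pdia3. That count was 2 without Fra1hep control 3, without Fra1hep mutant 2, without Fra2hep control 2 or without Fra2hep mutant 1, and 3 without Fra1hep mutant 1. It rose to 10 without Fra1hep control 2 and to 11 without Fra1hep mutant 3 or without Fra2hep control 3. It was 5 without Fra2hep control 1 or without Fra2hep mutant 3, and 0 without Fra1hep control 3 and Fra2hep control 2 together. With no scaling factor it was 2, against 1.36% of all genes. The number lower was 1 without Fra1hep control 3 and 2 without both controls. For P4hb the difference was 0.54 (SE 0.33, edgeR adjusted p = 0.864). The strains' effects on these genes are therefore not shown to differ.

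The levels of 2 of these genes are given for both strains. Pdia6, a disulfide isomerase, was at 304, 297 and 329 CPM in Fra1hep controls and at 264, 228 and 334 CPM in Fra1hep mutants. In the Fra2hep strain it was at 279, 238 and 288 CPM in controls and at 407, 319 and 335 CPM in mutants. The Fra2hep mutants were thus the high group and the Fra2hep controls lay below every Fra1hep control. Calr had the same order, with 1063, 1055 and 1108 CPM in Fra1hep controls, 1007, 962 and 1188 CPM in Fra1hep mutants, and 999 CPM as the highest Fra2hep control.

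Fra2hep controls were therefore also set against Fra1hep controls, a comparison between strains in which litter and strain cannot be told apart. In Fra2hep controls 33 of the 38 genes had a negative value and 5 a positive one, where 50.8% of all genes were positive. The median was -0.21 against 0.01 over all genes. By edgeR 0 were called, as 0.00% of all genes were called in either direction, and limma-voom called 0 of the 38. DESeq2 called 0 too, against 0.112% of its genes higher and 0.00699% lower. Unadjusted, 5 were lower and 1 higher at a p under 0.05, against 2.09% and 3.26% of all genes. For 7 genes the Fra2hep controls lay below all Fra1hep controls and for 1 above, against 4.82% and 5.28% of all genes.

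Sdf2l1 was at 43.6, 34.1 and 74.4 CPM in Fra1hep controls, all above the 23.1 to 28.1 CPM of the Fra2hep controls (log2 -0.96, SE 0.33, edgeR adjusted p = 0.866). Dnajb11 was at 118, 108 and 144 CPM in Fra1hep controls, above the Fra2hep controls (log2 -0.47, SE 0.17, edgeR adjusted p = 0.866). Ssr2 was at 101, 78.5 and 91.7 CPM against 69.2, 76.4 and 73.3 CPM (log2 -0.31, SE 0.11, edgeR adjusted p = 0.866). Creld2 had -1.31 with overlapping groups, since it was at 50.5, 31.6 and 113 CPM in Fra1hep controls. Ern1 had the opposite sign (log2 0.45, SE 0.16, edgeR adjusted p = 0.866). Much of this depended on 2 livers: the median was -0.09 without Fra1hep control 3, -0.14 without Fra2hep control 2, and 0.03 with 21 positive genes without both. The unadjusted lower count was 1, 2 and 1 in these fits.

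Mutants of the strains were compared in the same way. Litter, and age if the label of 9 months is right, cannot be told apart from strain here. In Fra2hep against Fra1hep mutants 30 of the 38 values were positive, where 46.8% of all genes were, and the median was 0.14. With single libraries left out the number of positive values ran from 20 to 31 and the median from 0.032 to 0.25, both lowest without Fra1hep mutant 2. Without Fra2hep mutant 1 they were 22 and 0.051. By edgeR 0 were called, where 0.0284% of all genes were called higher and 0.0213% lower, limma-voom called 0, and DESeq2 called Ern1, where 1.27% of its genes were called higher and 1.26% lower. At an unadjusted p under 0.05, 5 were higher (Ern1, P4hb, Pdia6, Dnajc3 and Sel1l) and 0 lower, against 5.71% and 6.58% of all genes. The count of 5 was 1 without Fra1hep mutant 2 or without Fra2hep mutant 1, and 3 without Fra1hep mutant 1, Fra2hep mutant 2 or Fra2hep mutant 3. Ern1 had 0.71 (SE 0.16, edgeR adjusted p = 0.118, DESeq2 adjusted p = 0.00551), and its 3 Fra2hep mutants lay above all Fra1hep mutants. That order held for 4 genes (Ern1, Dnajc3, Sel1l and Ssr3) and the reverse for Xbp1 and Eif2ak3, against 8.72% and 10.6% of all genes. Hspa5 had 0.10 (SE 0.29, edgeR adjusted p = 0.926).

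Genes with the ERSE letters can be set beside the others as a description. The 9 genes with ERSE had a median log2 fold change of 0.52 in Fra2hep mutants, -0.04 in Fra1hep mutants and -0.35 between the controls. The 22 genes with a window and no exact match to the ERSE letters had 0.29, 0.00 and -0.19. Herpud1 with its ERSE-II is among these 22, and inexact matches or sites outside the window were not searched. In Fra2hep control 2 the median deviation was -0.59 for the genes with ERSE and -0.32 for all the others of the 38, and in Fra2hep mutant 1 it was 0.45 and 0.21. The genes with ERSE were thus further from 0 in the livers that stood apart. These medians carry no test.

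Per kilobase of exon, the most abundant of the 38 in Fra1hep controls were P4hb with 477, Calr with 373, Hspa5 with 228, Hsp90b1 with 210.4 and Herpud1 with 193 CPM per kb. The least abundant were Derl3 with 2.18, Eif2ak3 with 3.98 and Atf6 with 7.57 CPM per kb. The chaperones and foldases at the top thus stood well above the sensors Eif2ak3 and Atf6.

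Neighbouring steps of the secretory pathway were read from further lists. Of 30 genes of COPII and Golgi traffic, 27 had a positive value in Fra2hep mutants (median 0.22), where 49.1% of all genes did, and 9 were higher and 0 lower at an unadjusted p under 0.05, against 6.60% and 4.86% of all genes. The 1 that was called, against 0.845% of all genes, was Sec22b. It encodes a fusion protein for vesicles between ER and Golgi and rose by 1.13 (SE 0.21, edgeR adjusted p = 0.0290). It was at 48.4, 41.9 and 40.7 CPM in Fra2hep controls and at 99.6, 106 and 80.6 CPM in mutants, far apart. In the Fra1hep strain it was at 57.9, 48.8 and 79.6 CPM in controls and at 76.2, 50.3 and 80.1 CPM in mutants, and the difference between strains did not pass (0.98, edgeR adjusted p = 0.528). As a mean of both effects 2 were called, against 4.33% of all genes: Sec24d, a COPII coat subunit, rose by 0.70 (SE 0.13, edgeR adjusted p = 0.00831) and Sec22b by 0.64 (adjusted p = 0.0243). In Fra1hep mutants alone 0 of the 30 were called by edgeR, with 2 higher and 1 lower at an unadjusted p under 0.05, against 9.95% and 6.36% of all genes.

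Of 29 other translocation and glycosylation genes, 25 were positive in Fra2hep mutants (median 0.19), where 49.1% of all genes were. As a mean of both effects 1 was called, against 4.33% of all genes: Sec63, which couples BiP to the translocon, rose by 0.36 (SE 0.09, edgeR adjusted p = 0.0311). Of 27 tested genes of other ER folding and redox factors, 20 were positive in Fra2hep mutants (median 0.16). Selenof, a selenoprotein partner of the glycoprotein folding sensor, rose by 0.56 (SE 0.12, edgeR adjusted p = 0.0214) as a mean of both effects, and Cnpy3, a chaperone of Toll-like receptors, by 0.40 (SE 0.10, adjusted p = 0.0391). In either strain alone 0 genes of these lists were called by edgeR. Of each list 6 were higher and 0 lower in Fra2hep mutants at an unadjusted p under 0.05, against 6.60% and 4.86% of all genes. In Fra1hep mutants 0 were higher and 1 lower among the translocation genes, and 1 higher and 3 lower among the folding factors, against 9.95% and 6.36% of all genes.

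Of 28 genes listed as other degradation factors and stress regulators, edgeR called 0 in any comparison. At an unadjusted p under 0.05, 4 were higher and 1 lower in Fra2hep mutants, against 6.60% and 4.86% of all genes. In Fra1hep mutants 3 were higher and 2 lower (10.7% and 7.14% of the 28), near the 9.95% and 6.36% of all genes. The smallest p in Fra1hep mutants belonged to Rnf139, a ubiquitin ligase of the ER membrane (0.45, SE 0.12, edgeR adjusted p = 0.0605), and Creb3l2 came next (0.97, SE 0.32, adjusted p = 0.144). In Fra2hep mutants they were Hid1 (-1.43, SE 0.50, adjusted p = 0.264) and Creb3l3 (0.41, SE 0.15, adjusted p = 0.281). Hid1 was the 1 gene counted as lower there, and it is not an established degradation factor or stress regulator. Creb3l3, a liver transcription factor held in the ER membrane, had -0.38 in Fra1hep mutants, and the difference between strains was 0.79 (SE 0.21, edgeR adjusted p = 0.454).

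The integrated stress response is started by PERK and by the other kinases of the translation factor eIF2, so its genes are not specific to ER stress. Of its 22 tested genes, 9 were positive in Fra2hep mutants with a median of -0.13, and edgeR called 0 there, with 0 higher and 2 lower at an unadjusted p under 0.05, against 6.60% and 4.86% of all genes. In Fra1hep mutants 2 were called higher, against 2.90% of all genes. Asns, asparagine synthetase, rose by 5.33 (SE 1.12, edgeR adjusted p = 0.0241), from 0.914, 0.835 and 1.08 CPM in controls to 9.24, 85.1 and 20.3 CPM in mutants. Vldlr, a lipoprotein receptor, rose by 3.25 (SE 0.76, edgeR adjusted p = 0.0396). Fra1hep mutant 2, the liver with the lowest levels of most ER chaperones in its group, held the highest Asns and Vldlr levels. As a mean of both effects Asns and Vldlr were called higher (3.31 and 2.12), against 4.33% of all genes, and 1 gene was called lower, against 1.90%: Gdf15, a stress-induced hormone, fell by 1.26 (SE 0.34, edgeR adjusted p = 0.0492). Of 10 messengers that IRE1 is known to cut, or taken as such, Ephx1 rose in Fra1hep mutants (0.66, SE 0.15, edgeR adjusted p = 0.0311), and 0 were called in Fra2hep mutants, with 0 higher and 2 lower at an unadjusted p under 0.05. As a mean of both effects Ephx1 was also called (0.43, SE 0.11, edgeR adjusted p = 0.0356). The shares of all genes are those given for the integrated stress response.

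Markers of cell types moved with some of these values. The summed hepatocyte markers were at 123258 to 148424 CPM in Fra2hep controls and at 85863 to 96218 CPM in Fra2hep mutants, without overlap. The largest single part of that sum was Alb, albumin, at 99257, 75934 and 101178 CPM in controls and at 36030.2, 53364 and 43919 CPM in mutants (log2 -1.05, edgeR adjusted p = 0.133). Apoa1 and Ttr had -1.17 and -0.69 and Serpina1a -0.04. The other 7 hepatocyte markers had positive values (Apob, Serpina1c, Fga, Fgb, Fgg, Hnf4a and Cps1), so the median of the 11 was 0.24. Apob was at 4002, 2942 and 4543 CPM in controls and at 5707, 8753 and 6671 CPM in mutants. By edgeR 0 of the 11 were called in this comparison. The 12 plasma and B cell markers summed to 211 to 232 CPM in Fra2hep controls and 252 to 352 CPM in mutants, again without overlap. Sdc1, which hepatocytes also express, made up most of that sum, while the plasma cell markers Jchain and Mzb1 stayed below 4 and 1 CPM in all 12 livers and Tnfrsf17 was at 0 in all Fra1hep controls. The 10 plasma and B cell markers tested had a median log2 fold change of -0.19 in Fra2hep mutants, with 0 called by edgeR. Stellate cell and macrophage sums overlapped between Fra2hep mutants and controls. In the Fra1hep strain the 10 stellate cell and fibroblast markers summed to 249 to 353 CPM in controls and 435.5 to 559 CPM in mutants, without overlap. Of these 10, Dcn (0.86, SE 0.12, edgeR adjusted p = 0.00239) and Lum (1.33, SE 0.23, adjusted p = 0.00819) rose, and the median was 0.79. In the same livers the plasma and B cell markers summed to 194 to 239 CPM in controls and 239.8 to 419 CPM in mutants. The part of these shifts in the levels of the ER genes was not tested.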

How the data were processed

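Liver RNA was sequenced as stranded polyadenylated libraries, 1 per mouse, and grouped by the titles. The deposited table holds raw whole-number counts per gene. The submitters' processing notes list RSEM, STAR 2.6.1a, DESeq2 1.22.2 and bedtools 2.27.1, with the build GRCm38 (mm10), in no stated order. The counter, annotation release and strand setting are not stated there, so counts of overlapping genes are uncertain. Beside the genes named above, exons of Dnajb9, Eif2ak3, Pdia3, Pdia6, Sec61a1, Spcs1, Spcs3, Ssr2, Syvn1 and Txndc5 overlap genes on the opposite strand. Those of Pdia4 overlap Mir704 on the same strand. No 2 replicates agreed within sampling noise: the lowest chi-square per degree of freedom over genes was 31.2. The highest were 134 between Fra2hep controls 1 and 2 and 110 between Fra1hep mutants 2 and 3.

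In R 4.3.3, edgeR 4.0.16 was run on these counts after filterByExpr with TMM factors and 4 group means (robust quasi-likelihood, two-sided). DESeq2 1.42.0, limma-voom (limma 3.58.1), other scalings and filters, the replicate number as a block, only the libraries compared, and each library left out were alternatives. Leaving out Fra1hep control 3 and Fra2hep control 2 was an alternative chosen after seeing the data. The edgeR fit was tested on simulated data. Animals were separate littermates, so spread is between animals, and n = 3 per group limits precision more than depth does.

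The 38 genes, the further lists and the cell type markers were chosen with earlier results of these data known. Genes given in every library were those called in any comparison, the 4 with the smallest p in each comparison except between mutants, and always Hspa5, Hsp90b1, Xbp1, Atf6, Ern1 and Eif2ak3. Of further lists, the called genes or the 2 with the smallest p were named. Gene positions are from GENCODE M21 and promoter sequences from RefSeq.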

Additional observations from a re-analysis of the deposited data

How the results depend on the processing

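Among 32 results for named genes, 641 of 660 alternative values kept their direction and their side of the threshold. 9 changed sign, none of them called. Of the 32, only the mean effect of P4hb was called in the main fit, so for the others keeping the side meant staying uncalled. Some alternatives left out a library that the comparison did not use. The share kept is therefore no measure of how firm the results are. With single libraries left out, values in Fra1hep ran from -0.019 to 0.53 for Hspa5, from -0.16 to 0.098 for Hsp90b1, from -0.038 to 0.32 for Xbp1 and from -0.056 to 0.23 for Atf6, and from -0.0038 to 0.22 for Atf6 in Fra2hep. Hsp90b1 in Fra1hep was 0.10 with no scaling factor and 0.033 without Fra1hep control 3 and Fra2hep control 2 together.

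In Fra2hep mutants the number called higher, 0 by edgeR, was 4 with DESeq2, 1 with no filter (P4hb), and 0 to 1 with single libraries left out. Over all genes DESeq2 called 2.09% higher there, and the fit with no filter called 113 of 26764. The deviations of same-numbered mice had correlations from -0.12 to 0.06. With 3 mice per group these cannot show whether the numbers pair the mice. With the replicate number as a block, 2 genes were called higher in Fra2hep (Sdf2l1 and Creld2), where 78 of all 14076 genes were called higher and 20 lower. The mean of both effects then had 2 called (P4hb and Creld2), where 458 of all 14076 genes were called higher and 173 lower. That block could not be fitted between strains. For the mean of both effects the count was 2 with no scaling factor, 0 to 3 with single libraries left out, and 0 without both named controls. With no scaling factor 939 of all 14076 genes were called higher in that comparison. The median difference between effects was 0.23 to 0.49 with single libraries left out and 0.18 without both controls; the median between controls was -0.31 to -0.094, and 0.029 without both. Between mutants DESeq2 called 1, where 1.27% of its genes were called higher. With no scaling factor the median of all genes in Fra1hep moved from 0.01 to 0.15, and that of the 38 to 0.14 with 32 positive. The cause of these changes was not tested.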
